A study of Mus musculus with 15 samples.

Results

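Lipid droplet coat and lipolysis genes were followed in mouse liver across 3 diets. The set holds the 10 genes Plin2, Plin3, Plin4, Plin5, Cideb, Cidec, G0s2, Pnpla2, Hilpda and Hsd17b13, taken by gene symbol from a table of 18510 rows. All 10 were present, and all 10 were among the 10959 genes expressed highly enough to be tested (1 FPKM or more in 5 or more of the 15 libraries). Bulk liver RNA was sequenced from 15 wild-type mice, with 5 mice each in the groups Ctrl (control diet), Alc (alcohol diet) and Alc UA (alcohol diet with UA, which the labels leave abbreviated). Not given in the sources used here are strain, sex, age, dose, duration of feeding and time of collection. FPKM counts fragments relative to transcript length and library size, so levels of different genes can be compared per length.

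Hepatocytes store triglyceride in droplets enclosed by a phospholipid monolayer and a coat of proteins. Perilipins shield the droplet surface and regulate access of lipases, CIDE proteins promote droplet fusion and the lipidation of secreted lipoproteins, and adipose triglyceride lipase carries out the first step of triglyceride breakdown. G0S2 and HILPDA are small proteins that bind this lipase and inhibit it. Droplets accumulate in the liver in alcoholic and metabolic steatosis.

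The promoters of 3 members are shown because Plin5 gave the most stable difference between diets, Plin4 is its neighbour with no such difference, and Hilpda held the only match among the regulatory motifs searched. Each sequence is the 250 bases before a RefSeq start site on GRCm38.p6, 5′ to 3′ on the gene's strand, with TATAA (in Plin5 and Plin4) or ACGTG, the core of the hypoxia response element (in Hilpda), in capitals.
Plin5, chr17:56117549-56117798, minus strand: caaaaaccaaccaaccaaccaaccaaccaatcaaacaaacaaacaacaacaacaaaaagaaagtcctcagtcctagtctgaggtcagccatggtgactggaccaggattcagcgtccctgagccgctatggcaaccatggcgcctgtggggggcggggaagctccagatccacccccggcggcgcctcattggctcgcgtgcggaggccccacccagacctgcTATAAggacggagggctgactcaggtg
Plin4, chr17:56109783-56110032, minus strand: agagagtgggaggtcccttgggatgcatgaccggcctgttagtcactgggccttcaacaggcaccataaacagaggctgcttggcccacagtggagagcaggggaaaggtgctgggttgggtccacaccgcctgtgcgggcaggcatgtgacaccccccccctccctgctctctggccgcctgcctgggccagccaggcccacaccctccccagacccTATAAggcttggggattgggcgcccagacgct
Hilpda, chr6:29272376-29272625, plus strand: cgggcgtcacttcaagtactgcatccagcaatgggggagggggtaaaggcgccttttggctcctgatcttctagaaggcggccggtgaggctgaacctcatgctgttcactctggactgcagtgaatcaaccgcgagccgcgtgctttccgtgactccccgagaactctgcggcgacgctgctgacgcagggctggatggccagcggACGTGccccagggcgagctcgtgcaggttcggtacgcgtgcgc

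Plin4 and Plin5 follow each other on chromosome 17, with this Plin5 start site 7766 bases before that of Plin4. Both windows shown hold TATAA shortly before the start, with its first base at position -27 in Plin5 and -32 in Plin4 (the base just before the start is -1). Plin5 has another RefSeq start site, 7516 bases before that of Plin4, whose window held no match. On the gene's strand, TATAA lay in the last 50 bases before the start in 4.93% of all 32851 windows and in no other member. ACGTG was found on 1 or the other strand in 16.6% of all windows and, among the 13 windows of the 10 members, only in the Hilpda window shown, from position -43. The E-box CACGTG, which contains ACGTG, was present in 6.02% of all windows and in none of the members. The PPAR response element AGGTCANAGGTCA and its relaxed form AGGNCANAGGNCA were present in 0.0335% and 0.338% of all windows, the D-box TTANGTAA in 2.06%, and the palindromic glucocorticoid response element in 0.0609%, each searched on both strands and in none of the members. These matches describe letters in a short window and say nothing of binding.

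In control livers, 3 members were expressed at similar and high levels. Plin2, the main perilipin of hepatocytes, stood at 559.7 ± 92.4 FPKM (mean ± SD, n = 5 throughout), G0s2 at 525 ± 170.2 and Hsd17b13, a liver droplet enzyme of the hydroxysteroid dehydrogenase family, at 516 ± 109. Their ranges overlapped. Cideb followed at 187 ± 21.4, then Plin5 at 55.9 ± 8.08, Pnpla2 at 46.2 ± 6.83 and Cidec at 33.0 ± 11.6. The ranges of these last 3 overlapped each other, and that of Cideb overlapped none of them. Plin3 stood at 18.6 ± 1.49, Plin4 at 16.6 ± 16.9 and Hilpda at 6.67 ± 2.57. Plin2 made up between 77.7% and 90.3% of the summed FPKM of the 4 perilipins in every library of the 3 groups.

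**Figure D1:**
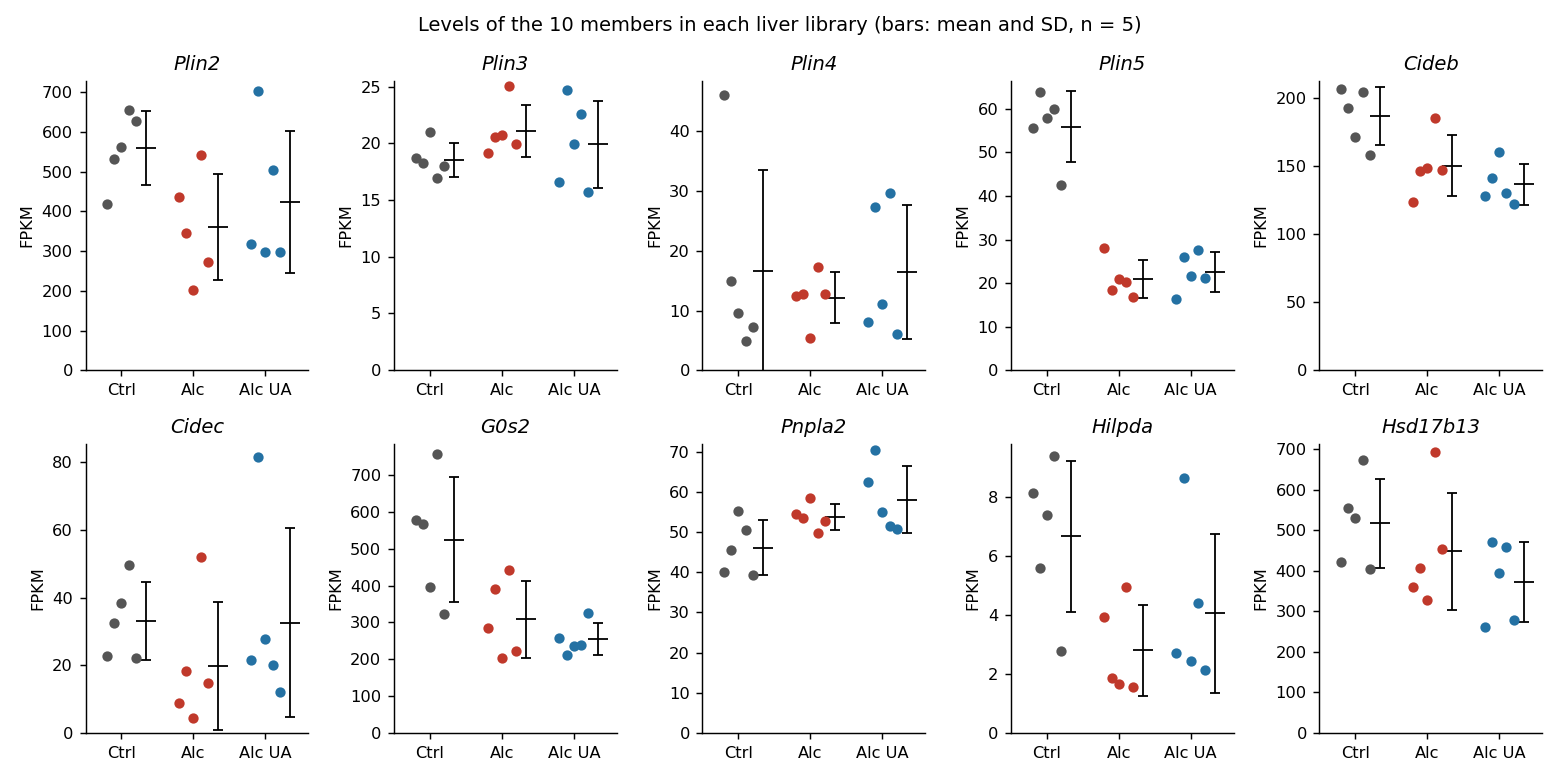
FPKM of the 10 members in each library, by diet group on the x axis, with points in the order of the replicate numbers and the mean and SD of 5 libraries beside them (the bar of Plin4 in Ctrl is cut at 0). The Plin5 values of both alcohol groups, 16.3 to 28.1 FPKM, lie below every control value, 42.5 to 63.8 FPKM.

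The libraries carried other differences between the diets that bear on any comparison with Ctrl. On the first principal component, with 45.7% of the variance, Ctrl 5 lay at -6.0 and the other controls between -48.4 and -30.2, and on the second Ctrl 1 and Alc 4 lay highest, at 23.2 and 25.1. Of 13 clock genes tested, 9 rose and 3 fell in Alc against Ctrl, where 10.6% of all genes tested rose and 22.8% fell. Dbp, a transcription factor driven by the clock, stood at 3.09 to 6.65 FPKM in Ctrl and at 62.9 to 126 in Alc. Sinusoidal endothelial markers fell (7 of 8, none at 0 in every library), with a summed level of 133 to 383 FPKM in Ctrl, 54.3 to 126 in Alc and 57.2 to 77.6 in Alc UA. Red cell markers fell as well (5 lower of the 5 tested of 6, none at 0 in every library). Their summed level was 1431 to 8801 FPKM in Ctrl, 576 to 988 in Alc and 346 to 1033 in Alc UA. Lymphocyte markers gave 5 lower of the 5 tested of 8, with summed levels of 9.05 to 50.3, 3.57 to 13.7 and 4.45 to 18.6 FPKM in the same order. Not all such markers fell. Of 8 stellate cell markers 0 were called, with median sums of 245 FPKM in Ctrl and 196 in Alc. Of 8 Kupffer cell and macrophage markers 0 were called, with median sums of 121 and 147. Cholangiocyte markers gave 1 lower of 4 tested, and neutrophil markers 1 lower of 2 tested. The part of these differences in the results below was not tested. Of the hepatocyte markers, 7 of 8 were in the table, and 2 of these 7 were lower in Alc than in Ctrl. Their summed level was 34849 to 56267 FPKM in Ctrl, 44514 to 59469 in Alc and 29054 to 48305 in Alc UA, with medians of 54430, 54431 and 40767. The 6 adipocyte markers in the table (of 7) summed to 3.65 to 15.9 FPKM, and 0 of 2 tested were called. Adipoq stood at 0.18 FPKM or less and Plin1, the perilipin of adipocytes, at 0.09 FPKM or less in every library.

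The comparison of Alc with Ctrl asks how droplet genes differed on the alcohol diet. Here 4 of the 10 members fell (Plin5, Hilpda, G0s2 and Cideb) and 0 rose (limma, Benjamini-Hochberg adjusted p under 0.05 over all genes tested). Among all 10959 genes 33.3% were called, 22.8% lower and 10.6% higher. The members' median log2 fold change was -0.51, against -0.12 for all genes tested. Log2 fold changes are given ± SE on the log2(FPKM + 1) scale, where the change of a weakly expressed gene such as Hilpda comes out too small. In bulk liver, fewer cells of a type and less RNA per cell cannot be told apart.

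The most stable of these differences was that of Plin5, the perilipin of oxidative tissues, which tethers droplets to mitochondria. Its levels in Ctrl 1 to 5 were 55.6, 63.8, 57.8, 59.9 and 42.5 FPKM. In Alc 1 to 5 they were 28.1, 18.5, 21.0, 20.3 and 16.9 FPKM. All 5 alcohol livers lay below all 5 control livers, including Ctrl 5, the lowest control. The mean was 2.67-fold lower in Alc (log2 fold change -1.38 ± 0.15, limma adjusted p = 3.3e-05). Plin5 passed the test under all 28 alternative settings and left-out libraries tried, with log2 fold changes of -1.58 to -1.21.

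Among the other perilipins, none passed. Plin2 was 419.8, 533, 563, 656 and 627 FPKM in Ctrl 1 to 5. It was 438, 345, 203, 543 and 274 FPKM in Alc 1 to 5. The ranges overlapped, although every Alc library lay under the Ctrl mean, and the log2 fold change was -0.70 ± 0.27 (limma adjusted p = 0.058, 95% interval -1.28 to -0.12). Plin2 passed under 7 of 28 alternatives (adjusted p 0.0087 to 0.15). With every library kept these were library weights (0.0087), the 2 groups alone (0.046) and the replicate block (0.039), and the others left out Ctrl 1, Alc 4, Alc UA 2 (which enters through the shared estimate of spread) or both of the last. Plin3, which moves from the cytosol to newly forming droplets, was 16.9 to 21.0 FPKM in Ctrl and 19.1 to 25.0 in Alc (log2 fold change 0.17 ± 0.12, limma adjusted p = 0.26). It passed as higher, at 0.24, after quantile normalization and, at 0.33, once libraries were scaled by median-of-ratios size factors (adjusted p 0.0095 to 0.49 over 28 alternatives). Plin4, a perilipin best known from fat and muscle, was 46.1 FPKM in Ctrl 1 and 4.96 to 14.9 in the other controls, against 5.34 to 17.35 in Alc. Its log2 fold change of -0.08 ± 0.52 (limma adjusted p = 0.92) changed sign without Ctrl 1, to 0.38, and under each of the 3 other scalings. As a share of the summed perilipin FPKM, Plin5 was 8.71% ± 1.71 in Ctrl and 5.46% ± 1.86 in Alc.

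Both inhibitors of adipose triglyceride lipase fell. G0s2 was 578, 568, 396, 758 and 324 FPKM in Ctrl 1 to 5. In Alc 1 to 5 it was 286, 391, 204, 443 and 222 FPKM. The groups overlapped, with Alc 2 and Alc 4 above the lowest control, and the mean was 1.70-fold lower (log2 fold change -0.77 ± 0.24, limma adjusted p = 0.024). G0s2 lost the call on leaving out control 1, 2 or 4 or Alc 3 or 5, and under size factors or equal library sums, and its adjusted p over 28 alternatives was 0.0020 to 0.073. Hilpda, also known as a target of hypoxia-inducible factors, was 8.16, 5.61, 7.40, 9.41 and 2.78 FPKM in Ctrl 1 to 5. In Alc 1 to 5 it was 3.94, 1.88, 1.67, 4.96 and 1.56 FPKM. Ctrl 5 lay among the alcohol livers, and the mean was 2.38-fold lower in Alc (log2 fold change -1.02 ± 0.34, limma adjusted p = 0.030). Hilpda lost it on leaving out control 1, 3 or 4 or Alc 2, 3 or 5, without the filter and under equal library sums (adjusted p 0.0018 to 0.079 over 28 alternatives).

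The lipase itself did not pass. Pnpla2, which encodes adipose triglyceride lipase, was 39.97, 45.55, 55.2, 50.7 and 39.4 FPKM in Ctrl 1 to 5. It was 54.45, 53.6, 58.5, 49.7 and 52.8 FPKM in Alc 1 to 5. All Alc livers lay above the Ctrl mean within overlapping ranges (log2 fold change 0.23 ± 0.11, limma adjusted p = 0.12, 95% interval -0.01 to 0.46). It passed as higher under size factors, equal library sums and library weights (adjusted p 0.023 to 0.56 over 28 alternatives). Within each library the ratio of G0s2 to Pnpla2 was 7.17 to 15 in Ctrl, with a mean of 11.5 ± 3.57. It was 3.48 to 8.91 in Alc, with a mean of 5.83 ± 2.25. This ratio is a description and was not tested.

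Of the CIDE genes, Cideb was 207, 193, 172, 205 and 158 FPKM in Ctrl 1 to 5. In Alc 1 to 5 it was 123, 146, 149, 186 and 147 FPKM. Only Alc 4 reached into the control range, but the difference was small (1.24-fold lower, log2 fold change -0.32 ± 0.12, limma adjusted p = 0.046), and 12 of 28 alternatives kept the call (adjusted p 0.0018 to 0.26). Leaving out control 1, 2 or 4, any Alc library but Alc 4, or library 1, 2 or 4 of Alc UA ended the call. Under size factors the log2 fold change was -0.15. In the GENCODE M21 annotation, 76.3% of the Cideb exon bases are also exons of Nop9, a gene on the opposite strand, and the strand setting of the counting is likewise not stated. Nop9 fell too, from 6.56 to 10.3 FPKM in Ctrl to 5.13 to 6.53 in Alc (limma adjusted p = 0.0054, log2 fold change -0.43 ± 0.10). Reads from the shared bases cannot be assigned to 1 of the pair by position without strand. Cidec, whose product fuses droplets, was 22.6, 32.4, 38.3, 49.7 and 22.02 FPKM in Ctrl 1 to 5. In Alc 1 to 5 it was 8.74, 18.4, 4.54, 52.0 and 14.9 FPKM. In Alc, 4 livers lay below every control and Alc 4 above every control, so the log2 fold change of -1.07 ± 0.52 did not pass (limma adjusted p = 0.12, 95% interval -2.19 to 0.04). Without Alc 4 it was -1.52 and passed (adjusted p = 0.022, and 0.0067 to 0.29 over 28 alternatives). Cidea, the related gene that is low in normal liver, was chosen for its values after they were seen. It stood at 27.97 FPKM in Alc 4, 3.2 in Alc 2 and 0.7 or less in the other Alc livers, against 0.05 to 1.11 in Ctrl, and did not pass (limma adjusted p = 0.23, log2 fold change 1.11 ± 0.70). Hsd17b13 was 405 to 673 FPKM in Ctrl and 328 to 691 in Alc, with Alc 4 the highest of all (log2 fold change -0.23 ± 0.22, limma adjusted p = 0.43).

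**Figure D2:**
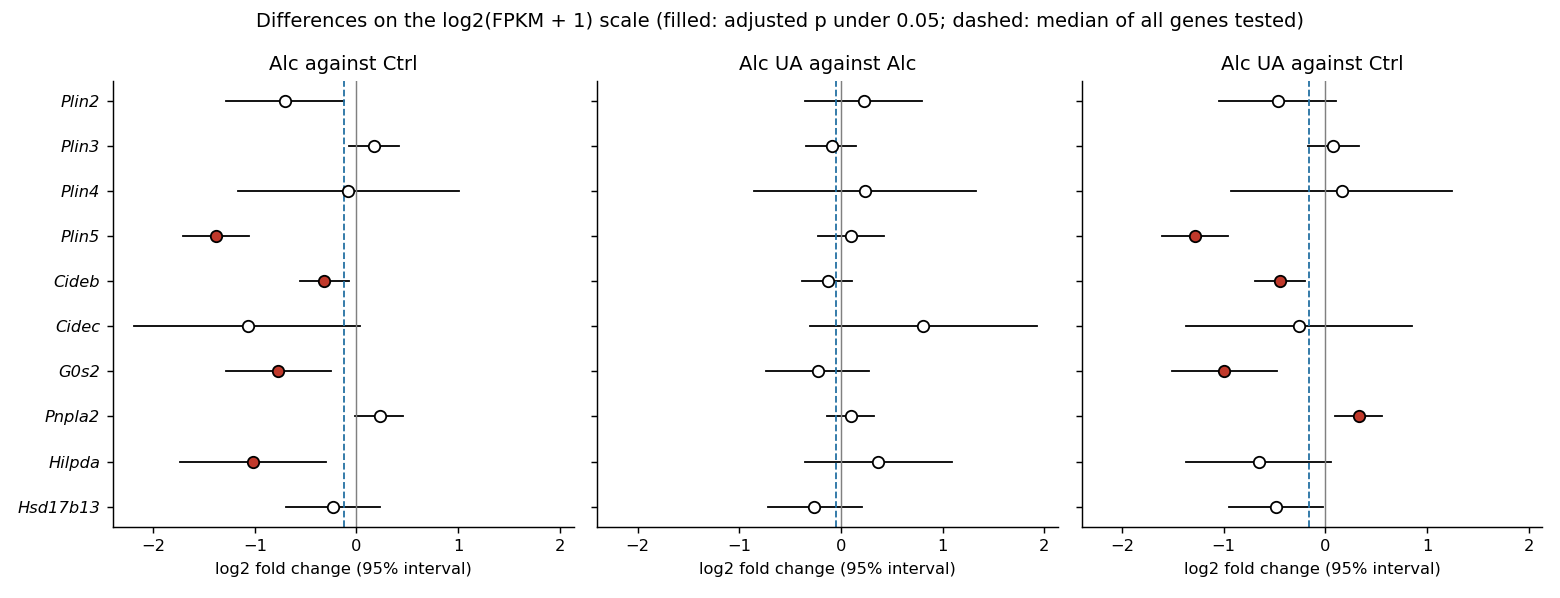
Log2 fold change with its 95% interval (x axis, log2(FPKM + 1) scale) for each member (y axis) in the 3 comparisons, with filled points for adjusted p under 0.05 and a dashed line at the median of all genes tested. Plin5 lies farthest below 0 in both comparisons with Ctrl, at -1.38 and -1.28, and every interval in the comparison of Alc UA with Alc spans 0.

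The scale of the libraries moved these counts. The median of all tested genes was -0.12 on the deposited scale, 0.0199 under size factors, 0.00225 after quantile normalization and -0.00634 under equal library sums. Of the called genes, 1157 were higher and 2497 lower on the deposited scale, 2075 and 1996 after quantile normalization, 2206 and 1672 with size factors, and 1602 and 1294 with equal sums. Of the members, 1 was higher and 4 lower after quantile normalization, 2 and 2 with size factors, and 1 and 1 with equal sums. With that deposited median subtracted, the log2 fold change was -1.26 for Plin5, -0.90 for Hilpda, -0.65 for G0s2 and -0.20 for Cideb.

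Other genes of droplet biology changed in both directions in Alc on the deposited scale, where 10.6% of all genes tested rose and 22.8% fell. Of 12 tested lipases and co-factors, 3 rose and 2 fell (median 0.07). In this list 3 rose and 1 fell after quantile normalization, 4 and 0 with size factors, and 3 and 0 with equal sums. Lipe, hormone-sensitive lipase, was 4.55 to 6.87 FPKM in Ctrl and 8.48 to 9.88 in Alc, without overlap (log2 fold change 0.54 ± 0.10, limma adjusted p = 0.0011, called under all 28 alternatives). The carboxylesterase genes Ces1g and Ces2e rose by 1.42 ± 0.31 and 1.02 ± 0.23 (adjusted p = 0.0033 and 0.0042). Mgll, which cleaves monoglyceride, fell by 0.73 ± 0.22 (limma adjusted p = 0.018), a call lost without Alc 1, with size factors and with equal sums (adjusted p up to 0.059 over 28 alternatives). Abhd5, the activator of adipose triglyceride lipase, was 6.96 ± 0.723 FPKM in Ctrl and 7.47 ± 1.02 in Alc (log2 fold change 0.09 ± 0.10, limma adjusted p = 0.50), and passed as higher under size factors only (adjusted p = 0.048). Pnpla3, a relative of Pnpla2 linked to human steatosis, stayed at 0.28 FPKM or less in every library.

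Of 11 tested genes of droplet formation, 3 rose and 0 fell (median 0.14), where 10.6% of all genes tested rose and 22.8% fell. Pcyt1a, which makes the phosphatidylcholine of the droplet surface, rose by 0.59 ± 0.12 (limma adjusted p = 0.0029, called under all 28 alternatives). Fitm2, needed for droplet budding, rose by 0.69 ± 0.24 and Vps13c, a lipid transfer protein, rose by 0.32 ± 0.11 (adjusted p = 0.038 and 0.032). The Fitm2 call ended without the filter and on leaving out control 1, 2 or 4 or Alc 1, 2, 4 or 5, and that of Vps13c on leaving out control 2 or 4 or Alc 1, 2 or 5 or with the replicate block (adjusted p up to 0.097 and 0.085). Of 14 droplet-associated enzymes and turnover genes tested, 3 rose and 4 fell (median 0.00), beside those same shares of all genes. Mettl7a1, a droplet-associated methyltransferase-like gene, rose by 0.72 ± 0.15, Aifm2, a redox protein, rose by 0.50 ± 0.12 and Lss, a sterol enzyme, rose by 0.46 ± 0.12 (adjusted p = 0.0027, 0.0074 and 0.0100). Hspa8, a chaperone that delivers perilipins to lysosomes, fell by 0.54 ± 0.17 (limma adjusted p = 0.022) and was not called on leaving out control 2 or 4 or Alc 5, or under size factors or equal sums (adjusted p up to 0.12). With size factors and with equal sums, 3 of this list rose and 0 fell, and after quantile normalization 4 rose and 4 fell.

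Among 12 tested transcription regulators of droplet genes, 3 rose and 0 fell (median 0.11), where 10.6% of all genes tested rose and 22.8% fell. Ppara, the fatty acid receptor that induces several members, was 30.4 to 46.8 FPKM in Ctrl and 52.4 to 75.2 in Alc, without overlap (log2 fold change 0.77 ± 0.14, limma adjusted p = 0.0013, called under all 28 alternatives). Foxo1 and Pparg rose by 0.51 ± 0.14 and 0.63 ± 0.22 (adjusted p = 0.012 and 0.039), and Pparg was not called on leaving out control 2, 3 or 4 or Alc 2, 4 or 5, without the filter, with the 2 groups alone or with the replicate block (adjusted p up to 0.10). Of 16 tested targets of PPAR alpha, 0 rose and 4 fell (median -0.26). The share of this list that fell was near the 22.8% of all genes tested. Fgf21 fell by 1.97 ± 0.56 and Fabp1, the cytosolic fatty acid carrier, fell by 1.02 ± 0.27 (adjusted p = 0.015 and 0.010). Ehhadh, a peroxisomal oxidation enzyme, fell by 1.19 ± 0.38 and Acaa1b, a peroxisomal thiolase, fell by 0.77 ± 0.23 (adjusted p = 0.026 and 0.021). Under each of the 3 other scalings 2 of these 16 were lower. Fabp1 was not called without the filter or after quantile normalization (adjusted p up to 0.16), and its log2 fold change was -0.88 to -0.54 over these scalings. Ehhadh was not called under size factors or equal sums, nor on leaving out control 2, 3 or 4 or Alc 2, 3 or 5 (adjusted p up to 0.068). Acaa1b was called under none of the 3 other scalings, nor on leaving out control 2 or Alc 5 (adjusted p up to 0.070). Of 8 tested HIF targets, 1 rose and 1 fell (median 0.09), with Pdk1 at 0.97 ± 0.12 and Ndrg1 at -1.02 ± 0.16 (limma adjusted p = 8.0e-05 and 5.0e-04).

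**Figure D3:**
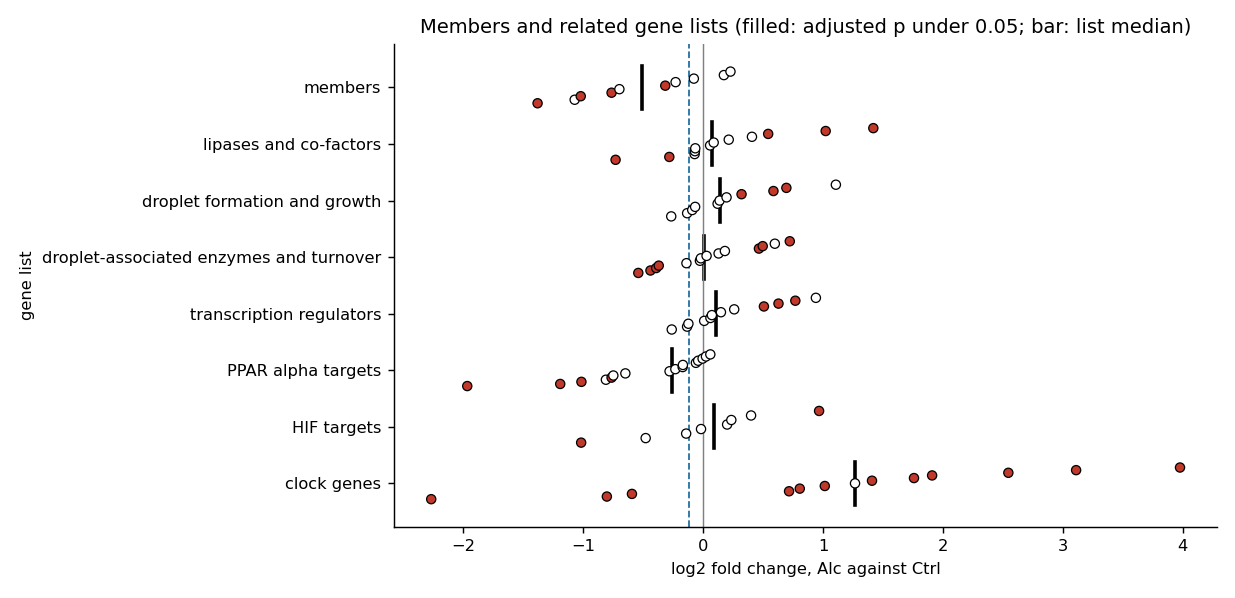
Log2 fold change in Alc against Ctrl (x axis, log2(FPKM + 1) scale) of each tested gene in the members and the related lists (y axis), filled where adjusted p was under 0.05, with a bar at each list's median and a dashed line at the median of all genes. The members' median of -0.51 and the PPAR alpha targets' median of -0.26 lie below that of all genes, -0.12, while the clock genes run from -2.27 to 3.98.

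The comparison of Alc UA with Alc asks whether UA changed these genes on the alcohol diet. None of the 10 members passed (limma, 0 at adjusted p under 0.05 and 0 at unadjusted p under 0.05). Of all 10959 genes 1 was called, 0.00912%, namely the major urinary protein gene Mup5, and 664 had an unadjusted p under 0.05. Plin5 was 16.3, 26.1, 21.5, 27.7 and 21.1 FPKM in Alc UA 1 to 5, all below the lowest control and within the range of Alc but for Alc UA 1. Its log2 fold change was 0.10 with a 95% interval of -0.23 to 0.42 (limma adjusted p = 0.93). The widest interval was that of Cidec, at 21.5, 81.4, 27.8, 19.97 and 12.2 FPKM in Alc UA 1 to 5. Alc UA 2 held the highest Cidec of the study, and the log2 fold change was 0.81 with an interval of -0.30 to 1.93 (limma adjusted p = 0.83), so a large rise lies within the interval. For Plin2 the values were 319, 704, 297, 503 and 298 FPKM, with Alc UA 2 above every other library (log2 fold change 0.23, interval -0.35 to 0.80, limma adjusted p = 0.90). Hilpda was 2.70, 8.64, 2.43, 4.40 and 2.14 FPKM (log2 fold change 0.37, interval -0.35 to 1.09, limma adjusted p = 0.89). G0s2 was 259, 212, 235, 238 and 326 FPKM (log2 fold change -0.23, interval -0.74 to 0.28, limma adjusted p = 0.90). The narrowest interval was that of Pnpla2, from -0.14 to 0.33, over values of 62.4, 70.5, 55.1, 51.5 and 50.7 FPKM. In Plin4, Alc UA 2 and Alc UA 4 held 27.4 and 29.65 FPKM and the others 6.11 to 11.1. Hsd17b13 ran from 261 to 470.4 FPKM, Cideb from 122 to 161 and Plin3 from 15.75 to 24.7 in Alc UA. In the 7 related lists, 0 genes passed in this comparison.

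Alc UA was also set against Ctrl, a comparison that shares its libraries with both others. Here 3 members fell and 1 rose, where 42.6% of all genes were called, 32.1% lower and 10.5% higher. Plin5 was 2.48-fold lower (log2 fold change -1.28 ± 0.15, limma adjusted p = 4.9e-05), again without overlap and under all 28 alternatives. G0s2 was 2.07-fold lower (log2 fold change -1.0 ± 0.24, limma adjusted p = 0.0045), with Alc UA 5 alone reaching the lowest control, and passed under all 28 alternatives. Cideb was 1.37-fold lower (log2 fold change -0.45 ± 0.12, limma adjusted p = 0.0066) and lost the call with size factors, at -0.20 (adjusted p = 0.099, and 6.2e-04 to 0.099 over 28 alternatives). Pnpla2 was 1.26-fold higher (log2 fold change 0.33 ± 0.11, limma adjusted p = 0.028). That call ended on leaving out control 1, 2 or 5 or library 1 or 2 of Alc UA, and with the 2 groups alone (adjusted p 0.0023 to 0.19 over 28 alternatives). Hilpda stood at -0.65 ± 0.34, Plin2 at -0.47 ± 0.27, Hsd17b13 at -0.49 ± 0.22, Cidec at -0.26 ± 0.52, Plin4 at 0.16 ± 0.52 and Plin3 at 0.08 ± 0.12 on the log2 scale, with limma adjusted p from 0.083 to 0.82. With size factors 2 members were higher and 2 lower, and over all genes the split of 1152 higher and 3521 lower became 2447 and 2421 after quantile normalization, 2738 and 2022 with size factors and 1310 and 2540 with equal sums. The median of all tested genes was -0.163 on the deposited scale. The ratio of G0s2 to Pnpla2 was 3.0 to 6.43 in Alc UA, below every control ratio.

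**Figure D4:**
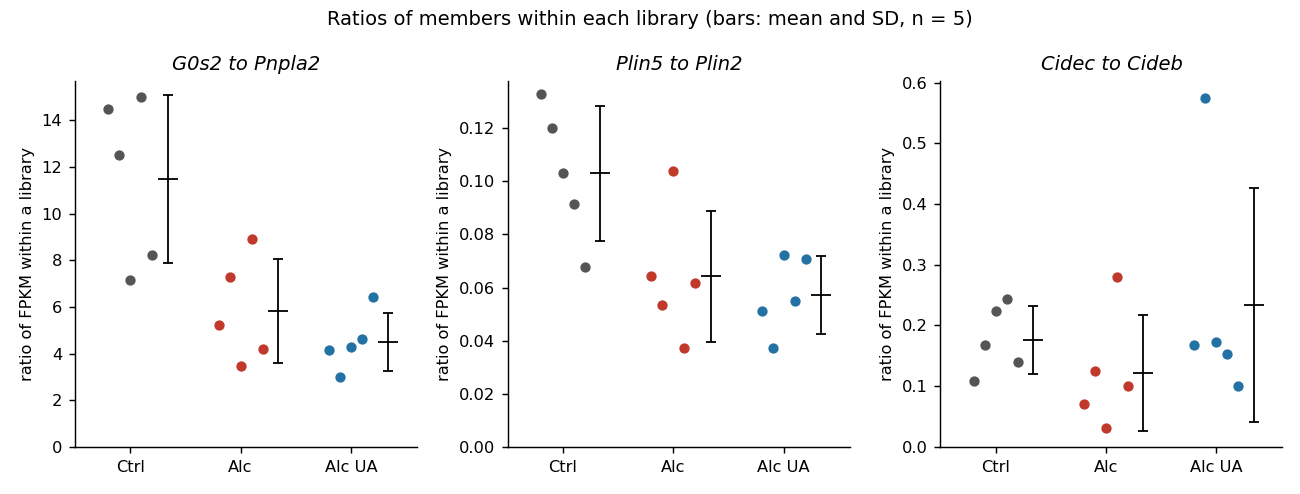
Ratios of FPKM within each library (y axis) by diet group (x axis) for G0s2 to Pnpla2, Plin5 to Plin2 and Cidec to Cideb, with the mean and SD of 5 libraries. The ratio of G0s2 to Pnpla2 has means of 11.5 in Ctrl, 5.83 in Alc and 4.5 in Alc UA, and the ratio of Cidec to Cideb reaches 0.575 in Alc UA 2.

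Within the diet groups, single livers stood high or low in many members at once. Alc 4 held the highest level of its group for 8 of the 10 members and Alc UA 2 for 6, while Ctrl 4 did so for 5. Ctrl 5 was lowest of its group for 7 members, Alc UA 5 for 6 and Alc 3 for 5. The share of all genes that were highest or lowest in these libraries was not counted. These counts therefore cannot tell a pattern of the members from a shift of the whole library. After subtracting each group's mean, 45 pairs of members were compared over 15 libraries with 100000 permutations within groups. Cidec and Hsd17b13 moved together most closely (Pearson's r = 0.82, permutation p = 2.9e-04, adjusted p = 0.013, with Spearman rho = 0.78, permutation p = 0.0021, adjusted p = 0.095). This was the only pair of 45 past an adjusted p of 0.05 by Pearson's r. Leaving out the 2 libraries farthest from the median in Cidec, Alc 4 and Alc UA 2, gave r = 0.70. The other pairs named here did not pass. Plin2 and Hilpda had r = 0.70 (permutation p = 0.0082, adjusted p = 0.11) and rho = 0.69 (permutation p = 0.011, adjusted p = 0.16), and r = 0.58 without Alc UA 2 and Alc 3. Plin2 and Cidec had r = 0.74 (permutation p = 0.011, adjusted p = 0.11) and rho = 0.51 (permutation p = 0.095, adjusted p = 0.31), and r = 0.52 without Alc UA 2 and Alc 3. With Alc 4 and Alc UA 2 left out instead, r was 0.41 for Plin2 with Hilpda and 0.39 for Plin2 with Cidec. Without Alc 4 and Alc UA 2, a choice made after seeing the data, 6 members fell and 0 rose in Alc against Ctrl, Plin2 and Cidec among them, where 2491 of all 10959 genes fell and 986 rose. In Alc UA against Ctrl, 6 members fell and 0 rose in that setting, where 3271 of all genes fell and 935 rose. Both livers were the highest of their group in most members, so leaving them out lowers those group means by construction.

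**Figure D5:**
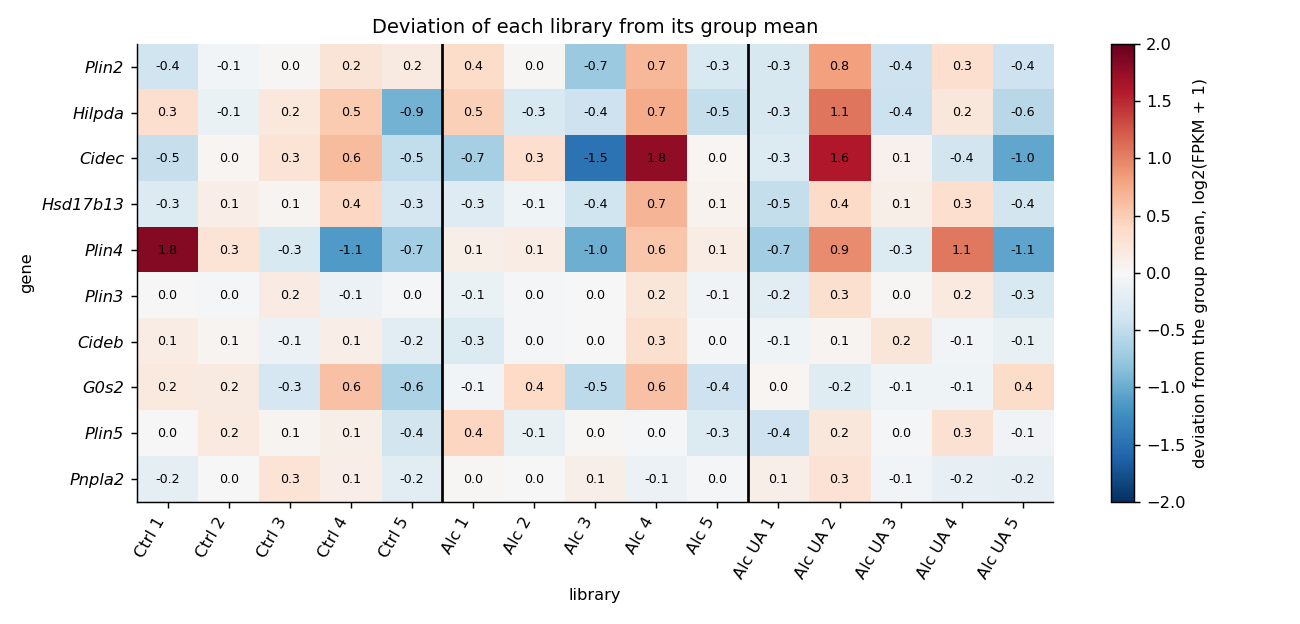
Deviation of each library (x axis) from its own group's mean on the log2(FPKM + 1) scale for each member (y axis), red above and blue below the mean. Alc 4 and Alc UA 2 stand out in Cidec, at 1.78 and 1.60, and Ctrl 1 in Plin4, at 1.84.

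The genes whose within-group pattern over 15 libraries was most like that of each changed member were searched among 9082 genes with a mean of at least 2 FPKM, as a description. For Plin5 they were Dot1l, Elmod3 and Tnk2 (r = 0.90, 0.90 and 0.87). For Hilpda they were Bcl10, Defb1 and Pfkfb3 (r = 0.91, 0.91 and 0.89), the last a glycolytic regulator on the list of HIF targets. For G0s2 they were Rps24, Rps26 and Plxnc1 (r = 0.81, 0.78 and 0.77). For Cideb they were Hprt, Mdh2 and Dynlrb1 (r = 0.96, 0.96 and 0.95).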

How the data were processed

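Per the labels' protocols, liver RNA came from a phenol and chloroform extraction, and libraries followed MGISEQ protocols. Expression of 18510 rows in 15 mice was deposited as FPKM with 2 decimals, with gene symbols as names (dates in 25). The submitters' processing notes name DESeq, StringTie, RSEM 1.2.8, Bowtie2 2.2.5 and HISAT2 2.1.0, without roles. Not given in the sources used here are build, annotation and strand setting. FPKM sums per library were 551153 to 668832, and read depth is unknown. Columns were matched to mice by group letter and replicate number.

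Values were analysed as log2(FPKM + 1) in 10959 genes with at least 1 FPKM in 5 of 15 libraries. All 3 groups entered 1 linear model (limma 3.58.1, R 4.3.3, variance prior with an expression trend, 12 residual degrees of freedom), and p was adjusted by Benjamini-Hochberg over all genes of a comparison (threshold 0.05). The p-values measure the spread between mice. Members, lists and alternatives were chosen with earlier results of these data known. Named list genes were the called ones, at most 4 per list with the largest change. On simulated data with 200 of 10959 genes changed, the fit recovered 52% of log2 changes of 0.5 and 88% of 1 for Alc against Ctrl, and 60% and 82% for Alc UA against Alc. The simulated noise was independent between genes, without shifts shared within a library, and changes were placed only in genes above a set mean level. These rates are averages over such genes and do not give the power for a single member. Promoters are from RefSeq (GRCm38.p6), where all 10 members matched by symbol. Motifs were searched in the 250 bases before each start, and TATAA was added after seeing the sequences.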

Additional observations from a re-analysis of the deposited data

Results flagged for a closer look

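In Ctrl 1, Mgll stood at 96.36 FPKM, farther below the other controls than their own spread (a gap of 0.78 of the group's range on the log2 scale, above the limit of 0.71 for 5 libraries). Of 75 groups of 5 libraries looked at among the members, their ratios and other described genes, this was the only one. Chance alone flags about 1 in every 20 such groups, so 1 flag among 75 is not more than chance gives.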

How the results depend on the processing

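Over 28 alternatives to the fit, the 10 members kept their direction and call in 228 of 280 values for Alc against Ctrl, 277 of 280 for Alc UA against Alc and 252 of 280 for Alc UA against Ctrl. Direction changed in 6, 3 and 8, and Plin5, called in both comparisons with Ctrl, kept the call in all. In Alc against Ctrl, 4 members were called, against 2 without the filter, 2 with equal sums, 7 with library weights and 1 to 6 with a library left out. Of all genes, 3654 were called, against 5870 with library weights. For Alc UA against Alc, 1 gene was called, against 2 with equal sums, 3 with library weights, 0 with the 2 groups alone, 0 with the replicate block, 2 without Ctrl 1 and Ctrl 5, 0 without Alc 4 and Alc UA 2 (chosen after seeing the data) and 1 to 5 with a library left out. Plin4 changed sign in Alc against Ctrl after quantile normalization (0.02), with size factors (0.08), with equal sums (0.05) and without Ctrl 1 and Ctrl 5 (0.31). In Alc UA against Ctrl it was -0.08 without Alc 4 and Alc UA 2. Leaving out a library gave Plin4 values of -0.36 to 0.38 for Alc against Ctrl, -0.02 to 0.50 for Alc UA against Alc and -0.12 to 0.62 for Alc UA against Ctrl. In Alc UA against Ctrl, the range was -2.5e-04 to 0.15 for Plin3 and -0.66 to 1.1e-03 for Cidec. Without Alc 4 and Alc UA 2, Plin3 was -2.5e-04 in Alc UA against Ctrl and Pnpla2 was -1.1e-03 in Alc UA against Alc. The cause was not tested, and read depth is unknown.

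The labels do not say whether the replicate numbers pair the libraries. Deviations of same-numbered libraries correlated at -0.3 to 0.29, and not every library correlated best with its own number. Replicate 5 did so in both comparisons with Ctrl (0.24 and 0.29). Such correlations cannot exclude a pairing. With the replicate block, 4 members and 3554 of all genes tested were called in Alc against Ctrl. In Alc UA against Ctrl, 5 members and 4534 of all genes were called. Under the block, Plin2 passed in Alc against Ctrl (-0.70, adjusted p = 0.039) and Cideb did not (-0.32, adjusted p = 0.055). Hsd17b13 passed in Alc UA against Ctrl (-0.49, adjusted p = 0.023). The block changed no other member's call, and among the other named genes it ended those of Pparg and Vps13c in Alc against Ctrl.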

Other observations

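Ces1g, a carboxylesterase gene of hepatic lipid handling, was 64.4, 106, 55.6, 127 and 144 FPKM in Alc 1 to 5 and 54.6, 61.5, 54.9, 41.0 and 46.6 in Alc UA 1 to 5. Its mean was 1.92-fold lower in Alc UA, with all 5 livers under the Alc mean (log2 fold change -0.85 ± 0.31, 95% interval -1.50 to -0.20), but the difference did not pass over all genes (limma unadjusted p = 0.013, adjusted p = 0.76, and 0.18 to 1.0 over 28 alternatives). Ddhd2, a lipase of the related list, was 7.25 ± 1.73 FPKM in Alc and 10.2 ± 3.23 in Alc UA (n = 5; log2 fold change 0.42 ± 0.18, limma adjusted p = 0.82). Of 9082 genes searched, Ddhd2 had the within-group pattern most like that of Plin2 over 15 libraries (r = 0.90), followed by Rab30 and Gk (r = 0.89 and 0.88). Both Ces1g and Ddhd2 were picked out after their values were seen.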
